A study of Mus musculus with 12 samples.

Results

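Mitochondrial ribosomal proteins are the nuclear-encoded proteins of the ribosome inside mitochondria. Their genes were taken by symbol, Mrpl for the large subunit and Mrps for the small subunit, each followed by a digit, and pseudogenes were left out. This gave 78 genes of the 24532 in the table, 49 of the large and 29 of the small subunit by symbol. Subunit counts and sums follow the symbol and not the place in the particle, also for Mrps18a and Mrps36, described below. All 78 passed the filter on low counts that left 13379 genes. They were measured by RNA sequencing of whole liver from mice of 20 wk on the C57BL/6x129S6/SvEv background. The 12 libraries form 3 groups of 4. KO_drug libraries come from Atp7b-/- mice that received an LXR agonist in the feed, KO libraries from Atp7b-/- mice without the agonist, and Het libraries from heterozygous control mice, so that the controls are not wild type. The labels give the control genotype only as Het. Atp7b encodes the copper-exporting ATPase whose loss causes Wilson disease, and LXRs (liver X receptors) are nuclear receptors for oxysterols. The labels do not name the agonist, its dose or its duration, the sex of the mice, or the part of Atp7b that is deleted.

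Mitochondrial ribosomes translate the few proteins encoded in mitochondrial DNA, which are core subunits of the respiratory chain and the ATP synthase. Their ribosomal RNAs come from mitochondrial DNA, whereas every protein of the particle is made in the cytosol and imported, so that 2 genomes must be expressed together. Some of the proteins have a bacterial counterpart, and others occur only in mitochondria. Liver is rich in mitochondria, and hepatocytes use them for fatty acid oxidation, the urea cycle and gluconeogenesis.

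The promoters show what these genes share in sequence. RefSeq promoters (build GRCm38.p6, the mm10 assembly), each from 250 bases before to 50 after a transcription start, were found for 69 of the 78 members. Of these, 26 (37.7%) held CCGGAAG, the core letters bound by ETS factors such as GABPA, on either strand, against 12.9% of 17491 protein-coding genes. The letters AAGATGGC of YY1 stood in 12 members (17.4%), against 3.57% of coding genes, and the letters GCGCATGCG of NRF1 in 7 (10.1%), against 2.61%. GABPA, YY1 and NRF1 are transcription factors known to act on nuclear genes for mitochondrial proteins. Any of these 3 motifs was present in 38 members (55.1%) and in 17.7% of coding genes. The Sp1 letters GGGCGG were as frequent in members as in coding genes (49.3% and 49.2%), the E-box CACGTG stood at 7.25% and 8.91%, and TATAAA at 7.25% and 14.8%. Another gene started on the opposite strand within 1000 bases upstream in 37.7% of members and in 13.2% of coding genes. NRF1 letters read nearly the same on both strands, so that overlapping matches were counted once per gene. A match is a run of letters and not a measured binding site.

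The following stretches hold the 120 bases before the start of 8 members, with the ETS, NRF1 and YY1 letters in capitals. Mrpl49 (chr19:6057756-6057875, minus strand), Mrps26 (chr2:130563637-130563756, plus strand) and Mrpl34 (chr8:71464806-71464925, plus strand) were picked from the members with small adjusted p in KO against Het. Mrps24 and Mrpl24 had a smaller adjusted p than Mrpl34 but are not shown, and their 120 bases hold none of the ETS, NRF1 and YY1 letters. Mrpl15 also had a smaller adjusted p than Mrpl34, and no promoter was found for it. Mrpl9 (chr3:94443216-94443335, plus strand) and Mrpl32 (chr13:14613038-14613157, minus strand) carry NRF1 letters. Mrpl14 (chr17:45686229-45686348, plus strand) had the largest rise with the agonist. Mrpl46 (chr7:78783090-78783209, minus strand) and Mrps11 (chr7:78783011-78783130, plus strand) lie head to head and share part of their upstream sequence, each printed on its own strand.
Mrpl49: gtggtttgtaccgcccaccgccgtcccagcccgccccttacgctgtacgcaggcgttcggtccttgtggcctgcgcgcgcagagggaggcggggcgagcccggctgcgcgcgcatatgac
Mrps26: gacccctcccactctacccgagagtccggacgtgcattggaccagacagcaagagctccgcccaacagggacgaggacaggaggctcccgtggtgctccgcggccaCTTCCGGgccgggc
Mrpl34: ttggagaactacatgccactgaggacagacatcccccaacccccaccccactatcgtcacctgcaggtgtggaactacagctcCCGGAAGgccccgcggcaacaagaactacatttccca
Mrpl9: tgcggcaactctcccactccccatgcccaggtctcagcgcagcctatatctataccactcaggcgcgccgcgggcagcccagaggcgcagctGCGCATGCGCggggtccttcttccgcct
Mrpl32: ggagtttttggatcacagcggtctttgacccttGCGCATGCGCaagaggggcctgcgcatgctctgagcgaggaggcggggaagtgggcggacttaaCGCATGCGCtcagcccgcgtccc
Mrpl14: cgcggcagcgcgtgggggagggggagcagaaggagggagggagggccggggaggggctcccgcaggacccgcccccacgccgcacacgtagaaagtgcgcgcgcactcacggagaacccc
Mrpl46: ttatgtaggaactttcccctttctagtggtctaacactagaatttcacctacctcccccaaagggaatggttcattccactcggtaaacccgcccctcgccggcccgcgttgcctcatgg
Mrps11: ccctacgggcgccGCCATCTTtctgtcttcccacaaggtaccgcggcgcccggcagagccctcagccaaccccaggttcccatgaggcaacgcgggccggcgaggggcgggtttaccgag
Mrpl49 and Mrpl14 hold none of the ETS, NRF1 and YY1 letters in these bases. Over the full promoter used for the counts above, Mrpl49 holds YY1 letters, as does Mrps24, whereas Mrpl14 and Mrpl24 hold none. Mrpl34 and Mrps26 carry 1 ETS match each, and Mrpl32 carries overlapping NRF1 matches at its upstream site and another near the start.

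**Figure D1:**
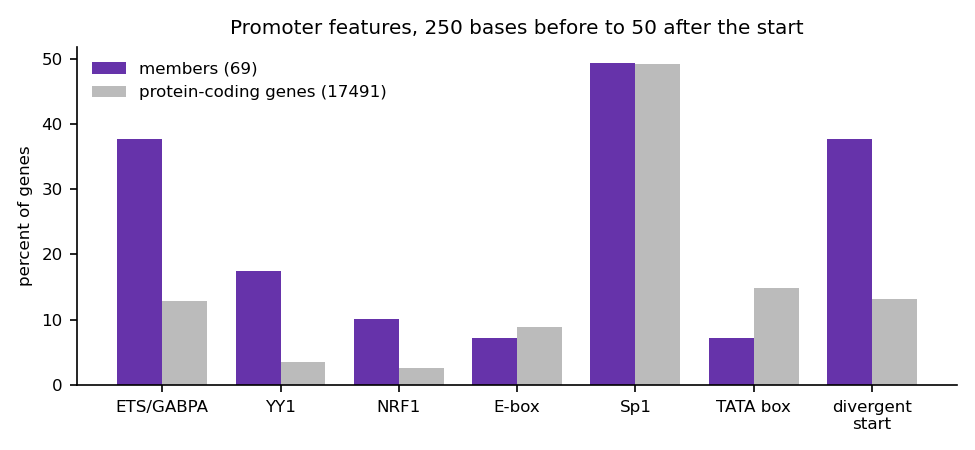
Percent of genes (vertical axis) whose promoter holds each set of letters on either strand, or has a divergent start within 1000 bases, for 69 members (purple) and 17491 protein-coding genes (grey). ETS letters stood in 37.7% of members and 12.9% of coding genes, whereas Sp1 letters stood in 49.3% and 49.2%.

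All members were expressed in every library, with 78 counts as the smallest value, for Mrps6 in 1 library. Levels between genes were compared as FPKM, which divides by the length of the gene model. The median member level was 19.4 FPKM in KO_drug, 20.8 FPKM in KO and 16.6 FPKM in Het libraries, on the authors' total-based scale. In Het libraries 72 of 78 members lay between 5 and 50 FPKM, and the highest mean was 30.8-fold the lowest. Mrps21, the small-subunit homologue of bacterial S21, had the highest mean in Het libraries, at 65.8 ± 5.48 FPKM in KO_drug, 75.5 ± 8.61 FPKM in KO and 61.1 ± 23.6 FPKM in Het libraries (SD, n = 4 each). Mrpl33 was above it in both knockout groups, at 73.2 ± 5.88 FPKM in KO_drug and 79.0 ± 14.9 FPKM in KO libraries, against 44.7 ± 19.7 FPKM in Het libraries, with overlapping spreads. Mrpl30 followed at 58.7 ± 16.9 FPKM in Het libraries, a difference from Mrps21 well within the spread. At the low end, Mrpl19, a large-subunit protein with a bacterial counterpart, stood at 2.15 ± 0.262 FPKM in KO_drug, 2.39 ± 0.114 FPKM in KO and 1.98 ± 0.309 FPKM in Het libraries. Mrps25, a mitochondria-specific small-subunit protein, had the neighbouring level of 2.02 ± 0.545 FPKM in Het libraries, also within the spread. The ratio of summed large-subunit to summed small-subunit FPKM was 2.03 to 2.16 in KO_drug, 1.98 to 2.09 in KO and 1.95 to 2.07 in Het libraries. The ranges of the 3 groups overlap.

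Library totals were 18841600 to 20174100 counts in KO_drug, 16535900 to 28329800 in KO and 19724700 to 25054800 in Het libraries. Levels of single genes are given as CPM, the counts per 1000000 counts after scaling by TMM (trimmed mean of M values). The targeted gene, Atp7b, ranged between 1.27 and 3.49 CPM in KO_drug libraries, between 1.68 and 2.71 CPM in KO libraries, and between 9.90 and 16.2 CPM in Het libraries, which overlapped neither knockout group. Xist, the RNA of the inactive X chromosome of female cells, was present in KO 5 (81.8 CPM) and KO 6 (17.8 CPM). It did not exceed 0.425 CPM in the other 10 libraries. The KO group may thus mix sexes while the other groups do not, and the labels give no sex. The part of sex in both comparisons with KO was not tested. The 100 most abundant genes took 40.6% to 43.1% of counts in KO_drug, 31.6% to 36.5% in KO and 42.2% to 50.3% in Het libraries. All 12 hepatocyte markers were detected in every group. Their summed level was 68338 to 88586 CPM in KO_drug, 37280 to 67105 CPM in KO and 81789 to 134940 CPM in Het libraries. The summed macrophage and Kupffer cell markers ran from 565 to 1267 CPM in KO_drug, 1219 to 2658 CPM in KO and 498 to 678 CPM in Het libraries. In whole liver, fewer cells of a type and less RNA per cell cannot be told apart.

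The members' summed level depended on how libraries were put on 1 scale. With TMM scaling, which centres most genes at no change, the 78 members summed to 2230 to 2431 CPM in KO_drug, 1695 to 2087 CPM in KO and 2287 to 2895 CPM in Het libraries. KO libraries then lay below both other groups without overlap. As a plain share of all counts, the members took 0.217% to 0.232% in KO_drug, 0.204% to 0.255% in KO and 0.185% to 0.285% in Het libraries, and all 3 groups overlapped. Het 1 stood apart at 0.285%, against 0.185% to 0.199% in the other Het libraries. Among the Het libraries, Het 1 had the highest TMM-scaled level for 57 of 78 members, and among the KO libraries KO 2 had the lowest for 60. KO 5 and KO 6, the libraries with Xist, had the highest level among the KO libraries for 31 members each. Their summed hepatocyte markers were also higher, at 58506 and 67105 CPM against 41138 and 37280 CPM in KO 2 and KO 4. Their summed macrophage and Kupffer cell markers were lower, at 1219 and 1476 CPM against 2658 and 2080 CPM. Which of these traits goes with the members' level was not tested.

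**Figure D2:**
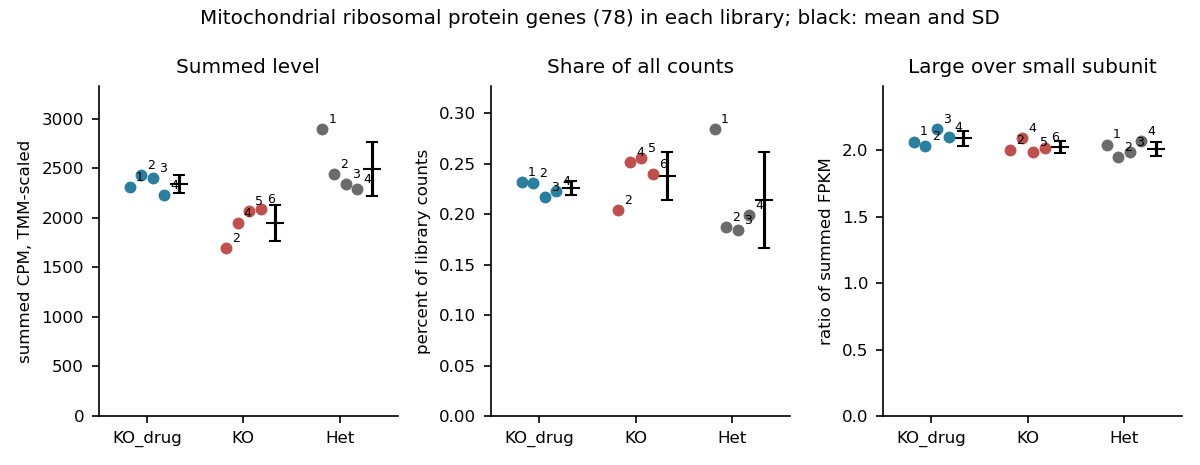
Each library (points, numbered by library) with the group mean and SD (black): summed TMM-scaled CPM of the 78 members (left), their percent of all library counts (middle) and the ratio of summed large-subunit to small-subunit FPKM (right). KO libraries (1695 to 2087 CPM) lie below KO_drug and Het libraries on the TMM scale, but the plain shares of counts overlap in the 3 groups.

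The comparison of KO with Het libraries asks what loss of Atp7b does to these genes. With TMM scaling, 36 of 78 members (46.2%) were lower in KO and 0 were higher, whereas under total-count scaling 0 were lower and 11 higher. The calls are from edgeR's quasi-likelihood test at an adjusted p under 0.05 over all 13379 genes. Over all genes tested, 17.7% were called lower and 23.0% higher in KO with TMM, and 3.44% were called lower and 51.5% higher under total-count scaling. The median log2 change of members was -0.34, beside 0.02 for all genes tested. Under total-count scaling both medians moved up, to 0.18 for members and 0.54 for all genes. Relative to the median of all genes, the members thus stood 0.35 lower with TMM and 0.36 lower under total-count scaling, and 75 of 78 lay below that median in either case. The 0 higher calls held also in DESeq2, and at an unadjusted p under 0.05 there were 46 lower and 0 higher members. The share of all genes at that unadjusted threshold is not given here, so these counts have no background beside them. The subunits by symbol were alike in share, with 23 of 49 Mrpl and 13 of 29 Mrps members called lower with TMM. The ranges of KO and Het libraries did not overlap for 38 members, all lower in KO on the TMM scale, beside 17.1% of all genes. Without KO 2 the lower calls numbered 23. The higher calls numbered 2 without Het 1 and 1 without KO 2. Markers of cell types moved with the same contrast. In KO against Het, 11 of 12 hepatocyte markers were lower (5 under total-count scaling), 12 of 14 macrophage and 6 of 6 neutrophil markers were higher under both scalings, and 5 of 6 markers of T and NK cells were higher. Their part in the members' result was not tested.

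**Figure D3:**
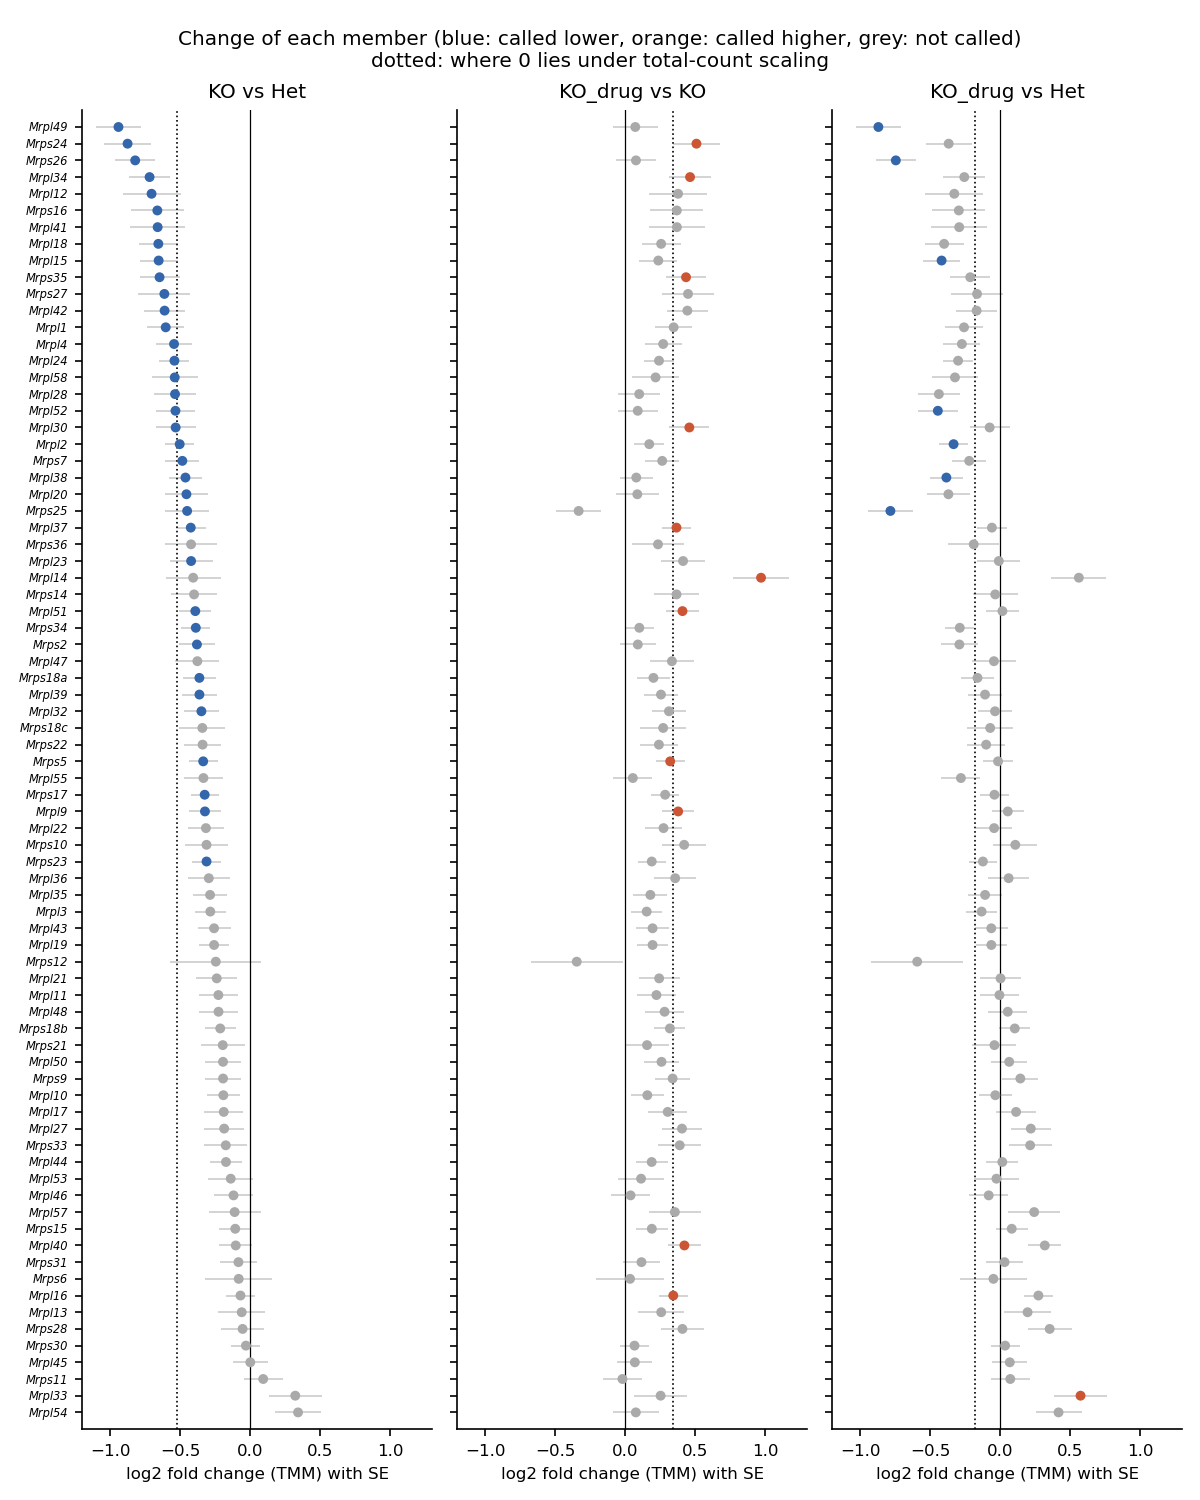
Log2 fold change with its SE (TMM scaling, horizontal axis) of each of the 78 members in the 3 comparisons, ordered by KO vs Het. Blue and orange points passed an adjusted p of 0.05. The dotted line marks where 0 would lie under total-count scaling. In KO vs Het, 36 members are called lower with TMM, and these lie on both sides of the dotted line. Of all 78 members, called or not, 59 have a positive change under total-count scaling and 19 a negative one.

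Large-subunit members are described first. Mrpl49 is a large-subunit protein without a bacterial counterpart (chr19:6053630-6057755). It had 17.3, 27.3, 17.9 and 18.1 CPM in KO_drug, 17.4, 19.1, 20.1 and 20.1 CPM in KO and 43.4, 38.5, 36.7 and 28.7 CPM in Het libraries. Both knockout groups lay below every Het library, and KO_drug 2 was the highest of the knockout libraries. The log2 change with TMM was -0.94 ± 0.16 (SE; adjusted p = 0.000657) in KO against Het, and -0.43 (adjusted p = 0.0605) under total-count scaling. Its span overlaps Syvn1, a ubiquitin ligase of the endoplasmic reticulum. Syvn1 averaged 14.7 ± 2.33 CPM in KO_drug, 19.7 ± 4.54 CPM in KO and 50.3 ± 21.2 CPM in Het libraries (SD, n = 4 each). Whether the counting used strand is not given in the sources used here, so reads of the 2 genes may not be fully separated. Fau, which starts divergently from Mrpl49 and encodes a ubiquitin-like fusion with a cytosolic ribosomal protein, changed by -0.47 ± 0.13 (SE; edgeR adjusted p = 0.0108) in KO against Het with TMM.

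Mrpl34, the counterpart of a small basic protein of the bacterial large subunit, had 20.4, 23.2, 17.4 and 20.5 CPM in KO_drug, 12, 14.3, 15.8 and 17.2 CPM in KO and 30.2, 24.3, 21.9 and 21.1 CPM in Het libraries. KO libraries were the lowest throughout, and KO_drug overlapped Het. The log2 change in KO against Het was -0.72 ± 0.15 (SE; edgeR adjusted p = 0.00213). Mrpl24 fell by 0.54 ± 0.11 (SE; edgeR adjusted p = 0.00161) and Mrpl15 by 0.66 ± 0.13 (edgeR adjusted p = 0.00202) on the log2 scale, both with bacterial counterparts and both without overlap between KO and Het. Mrpl12 belongs to the stalk that recruits translation factors, and it is also known to bind the mitochondrial RNA polymerase. Its change was -0.71 ± 0.21 (SE; edgeR adjusted p = 0.0155), but KO 4 at 42.3 CPM overlapped Het libraries of 40.1 to 61.5 CPM. Mrpl58, a peptidyl-tRNA hydrolase built into the large subunit that can free stalled ribosomes, changed by -0.54 ± 0.17 (SE; edgeR adjusted p = 0.019), and the call was lost without Het 1 (log2 change -0.38) or without KO 2. Under total-count scaling the changes of Mrpl34, Mrpl24, Mrpl15, Mrpl12 and Mrpl58 were -0.22, -0.02, -0.15, -0.20 and -0.04, and none was called.

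Among small-subunit members, Mrps26, a mitochondria-specific protein, had 11.6, 9.59, 9.98 and 9.34 CPM in KO_drug, 8.12, 8.59, 11.1 and 10.6 CPM in KO and 17.6, 18.2, 17.9 and 14.2 CPM in Het libraries. Every knockout library, with or without agonist, was below every Het library. The log2 change in KO against Het was -0.82 ± 0.14 (SE; edgeR adjusted p = 0.000696), and -0.30 (adjusted p = 0.121) under total-count scaling. Mrps24, the counterpart of a bacterial protein at the mRNA entry, had 25.5, 30.3, 32.9 and 30.2 CPM in KO_drug, 16.8, 23.1, 20.6 and 23.0 CPM in KO and 51.7, 33.2, 30.6 and 37.8 CPM in Het libraries. KO was the lowest group without overlap, and Het 1 was far above the other Het libraries. Its log2 change in KO against Het was -0.88 ± 0.17 (SE; edgeR adjusted p = 0.0012), and -0.39 (adjusted p = 0.134) under total-count scaling. Mrps35 changed by -0.65 ± 0.14 (SE; edgeR adjusted p = 0.00305) and Mrps7, a head protein that binds ribosomal RNA, by -0.49 ± 0.12 (edgeR adjusted p = 0.00636). Under total-count scaling these changes were -0.15 and 0.02, so that the direction for Mrps7 turned.

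The 3 paralogues of bacterial S18 did not share 1 result. Mrps18a, which sits in the large subunit despite its name, changed by -0.36 ± 0.12 (SE; edgeR adjusted p = 0.0273), a call lost without Het 1 (log2 change -0.29), KO 2 or KO 4. Mrps18b changed by -0.21 ± 0.11 (SE; edgeR adjusted p = 0.138) and Mrps18c by -0.34 ± 0.16 (SE; edgeR adjusted p = 0.114), which was -0.16 without Het 1 and -0.46, past the threshold, without KO 4. Differences between the paralogues were not tested. Under total-count scaling the changes were 0.14, 0.31 and 0.16, the opposite sign, and Mrps18b was then called higher (edgeR adjusted p = 0.0395). Mrps36, now known as a subunit of the 2-oxoglutarate dehydrogenase complex, changed by -0.42 ± 0.18 (SE; edgeR adjusted p = 0.0813). Mrps12, the counterpart of the decoding-centre protein S12, had the largest SE of all members, with 8.28, 8.91, 6.78 and 8.97 CPM in KO_drug, 6.80, 5.55, 19.0 and 10.4 CPM in KO and 9.80, 9.82, 17.5 and 12.7 CPM in Het libraries. KO 5 was the highest library, and the change in KO against Het was -0.25 ± 0.33 (SE; edgeR adjusted p = 0.574). Leaving out single libraries gave values between -0.71 without KO 5, then past the threshold, and -0.04 without KO 4.

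Only 3 members had a positive fitted change in KO with TMM, and none passed the test. Mrpl54 averaged 29.9 ± 3.17 CPM in KO_drug, 28.4 ± 5.60 CPM in KO and 22.4 ± 4.29 CPM in Het libraries (SD, n = 4 each), and its change in KO against Het was 0.34 ± 0.16 (SE; edgeR adjusted p = 0.114). Mrpl33 averaged 44.3 ± 4.04 CPM in KO_drug, 37.2 ± 6.37 CPM in KO and 29.7 ± 9.22 CPM in Het libraries, with a change of 0.32 ± 0.19 (SE; edgeR adjusted p = 0.193). Mrps11, a small-subunit protein with a bacterial counterpart, changed by 0.09 ± 0.14 (SE; edgeR adjusted p = 0.629). Under total-count scaling these members were among the 11 called higher, at 0.84 for Mrpl54, 0.81 for Mrpl33 and 0.60 for Mrps11.

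**Figure D4:**
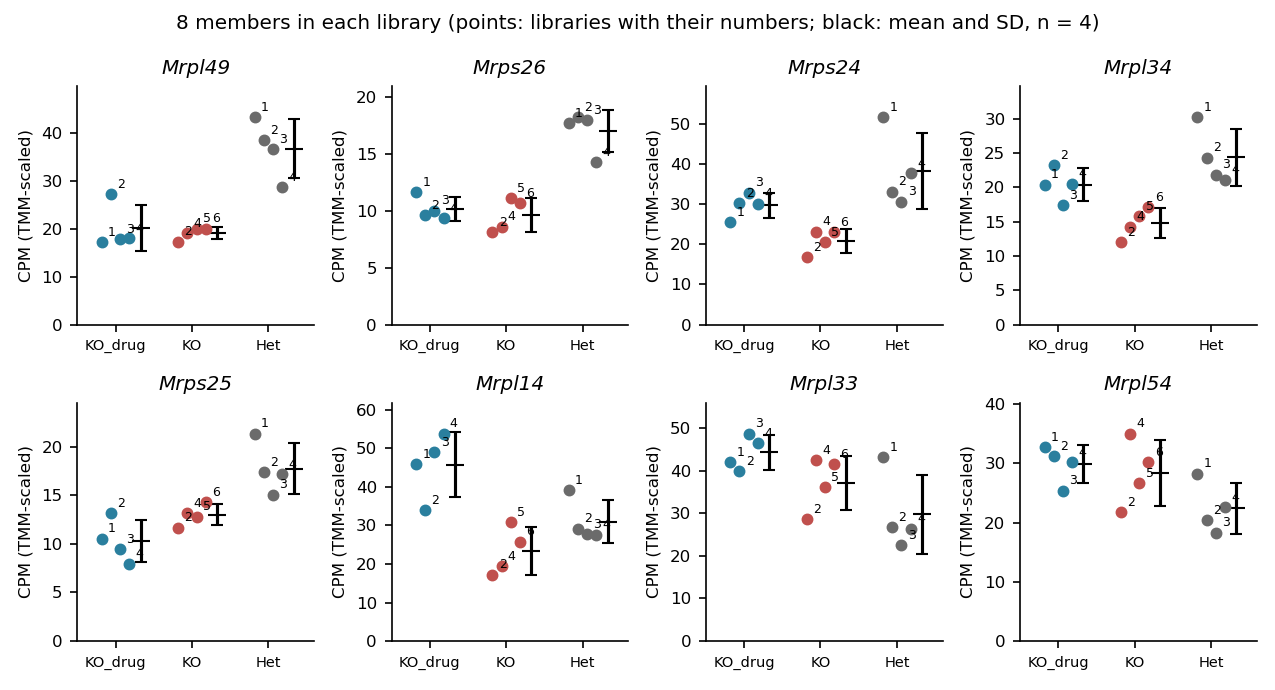
TMM-scaled CPM (vertical axes, from 0) of 8 members in each library, with KO_drug left, KO in the middle and Het right; points carry library numbers, and black marks give the mean and SD (n = 4). Mrpl49 and Mrps26 are low in both knockout groups, Mrps24 and Mrpl34 are lowest in KO, Mrps25 is lowest in KO_drug on average, and Mrpl14 is highest in KO_drug. The directions are on the TMM scale and turn for Mrps25 and Mrpl14 in KO against Het under total-count scaling.

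The comparison of KO_drug with KO libraries asks what the LXR agonist does in the knockout. With TMM scaling, 11 of 78 members (14.1%) were higher in KO_drug and 0 lower, whereas under total-count scaling 1 was higher and 1 lower. Over all genes tested, 8.80% were called higher and 11.0% lower with TMM, and 2.68% higher and 29.1% lower under total-count scaling. The median log2 change of members was 0.26, beside -0.02 for all genes, and under total-count scaling the medians were -0.09 and -0.36. Members thus stood 0.27 above the median of all genes under either scaling. The fitted change lay above 0 for 75 members and below 0 for 3 with TMM, whereas 51.5% of all genes lay below 0. At an unadjusted p under 0.05 there were 27 higher and 0 lower members, without a share of all genes to set beside them. DESeq2 also called 0 lower. The groups did not overlap for 22 members, all higher in KO_drug on the TMM scale, beside 11.4% of all genes. The number of higher calls depended on the libraries used. It was 1 without KO 2, 2 without KO 4 or KO_drug 3 and 3 without KO_drug 2. It was 6 without KO 5, 7 without KO_drug 4 and 10 without KO 6. The median member change stayed between 0.19 and 0.29 when each of the 8 libraries was left out in turn. Of the 11 members higher in KO_drug, 8 were also lower in KO against Het. Both comparisons use the same KO libraries, so the 2 sets of calls are not independent. Macrophage markers were lower in KO_drug than in KO for 9 of 14 and hepatocyte markers higher for 3 of 12, and their part in the members' result was not tested. With TMM, the KO_drug mean lay between the KO and Het means in 51 of 78 members (65.4%), above both in 25 (32.1%) and below both in 2 (2.56%). For all genes these shares were 47.9%, 25.3% and 26.8%. On total-count CPM the KO_drug mean lay between in 42 members (53.8%), above in 16 (20.5%) and below in 20 (25.6%). For all genes these shares were 57.5%, 13.9% and 28.5%.

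Mrpl14 had the largest change in either direction in KO_drug against KO. It is a large-subunit protein on the face toward the small subunit, and the human protein is known to bind the assembly factor MALSU1. It had 45.9, 34.0, 49.0 and 53.8 CPM in KO_drug, 17.2, 19.4, 30.8 and 25.8 CPM in KO and 39.2, 29.2, 27.8 and 27.6 CPM in Het libraries. Every KO_drug library was above every KO library, and KO and Het overlapped. The level in KO_drug was 1.96-fold that in KO, with a log2 change of 0.97 ± 0.20 (SE; edgeR adjusted p = 0.00557) and an exact two-sided permutation p of 0.0286, the smallest that 4 against 4 libraries can give. The call held under total-count scaling at 0.64 (adjusted p = 0.0471) and without each of the 8 libraries in turn. The span of Mrpl14 (chr17:45685722-45698495) overlaps Tmem63b, a membrane ion channel gene. Tmem63b averaged 71.9 ± 15.2 CPM in KO_drug, 53.4 ± 9.29 CPM in KO and 50.4 ± 7.67 CPM in Het libraries (SD, n = 4 each), with a change of 0.43 ± 0.18 (SE; edgeR adjusted p = 0.11) in KO_drug against KO.

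The other 10 calls were smaller and did not hold under total-count scaling. Mrpl40 rose by 0.42 ± 0.12 (SE; edgeR adjusted p = 0.0242), Mrpl51 by 0.41 ± 0.12 (edgeR adjusted p = 0.026) and Mrpl37 by 0.37 ± 0.11 (edgeR adjusted p = 0.029) on the log2 scale, all 3 mitochondria-specific large-subunit proteins. Mrpl40 lost its call without KO 2 (log2 change 0.35) or KO_drug 3. Mrpl51 lost it without KO 2 (0.33), KO 4 or KO_drug 3, and Mrpl37 in 5 of 8 such fits, the lowest change being 0.32 without KO_drug 2. Mrpl30 (0.46 ± 0.14, SE; edgeR adjusted p = 0.0388), Mrpl34 (0.46 ± 0.15, adjusted p = 0.0443), Mrps24 (0.51 ± 0.17, adjusted p = 0.0459), Mrps35 (0.43 ± 0.14, adjusted p = 0.048) and Mrps5 (0.32 ± 0.10, adjusted p = 0.0464) passed the threshold narrowly. When each of the 8 libraries was left out in turn, Mrpl30 kept its call in 2 fits, Mrps24 and Mrps35 in 1 each, and Mrps5, the counterpart of a bacterial protein of decoding fidelity, in 0; the lowest changes, all without KO 2, were 0.37, 0.41, 0.35 and 0.27. Mrpl9 (0.38 ± 0.11, SE; edgeR adjusted p = 0.0339) and Mrpl16 (0.34 ± 0.11, adjusted p = 0.0358) complete the 11. Mrpl9, Mrpl16 and Mrpl34 each lost the call in 6 of the 8 fits, among them those without KO 2, KO 4 or KO_drug 2. The changes of these 10 members under total-count scaling were between -0.02 for Mrps5 and 0.16 for Mrps24.

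In KO_drug against Het libraries, 7 members were lower and 1 higher with TMM, beside 8.45% and 13.0% of all genes. Under total-count scaling 3 were lower and 4 higher, beside 3.73% and 18.2% of all genes. The median member change was -0.06 with TMM and 0.12 under total-count scaling, beside 0.00 and 0.18 for all genes. The 7 lower members were Mrpl2, Mrpl15, Mrpl38, Mrpl49, Mrpl52, Mrps25 and Mrps26, and all 7 were also lower in KO against Het, a comparison that shares the Het libraries. Mrpl49 changed by -0.87 ± 0.16 (SE; edgeR adjusted p = 0.002) and Mrps26 by -0.75 ± 0.14 (edgeR adjusted p = 0.00243), and under total-count scaling they stayed called at -0.70 and -0.56. The lower calls numbered 3 without KO_drug 1 or KO_drug 4, and 4 without Het 1, Het 2 or KO_drug 3. Mrpl2 kept its call in 1 of the 8 fits without a library, Mrpl52 in 2 and Mrpl38 in 3. The single higher member was Mrpl33, the counterpart of a small zinc-binding protein of many bacteria. It had 42.1, 39.9, 48.7 and 46.5 CPM in KO_drug, against 43.3, 26.7, 22.5 and 26.4 CPM in Het libraries. Het 1 alone lay within the KO_drug range, and the log2 change was 0.57 ± 0.19 (SE; edgeR adjusted p = 0.0462). Mrpl33 kept this call without Het 1 (log2 change 0.81) and lost it without each of the other 7 libraries. Higher calls numbered 8 without Het 1 and 0 without any of Het 2, Het 3, Het 4, KO_drug 1, KO_drug 3 or KO_drug 4. Among small-subunit members, Mrps34 stood at -0.29 ± 0.10 (SE; edgeR adjusted p = 0.0663), Mrps28 at 0.35 ± 0.16 (adjusted p = 0.13) and Mrps33 at 0.21 ± 0.15 (adjusted p = 0.359).

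Mrps25 was 1 of 2 members, with Mrps12, whose KO_drug mean lay below both other groups on the TMM scale. It had 10.5, 13.2, 9.49 and 7.96 CPM in KO_drug, 11.7, 13.2, 12.8 and 14.3 CPM in KO and 21.4, 17.4, 15.1 and 17.2 CPM in Het libraries. KO_drug and KO overlapped, and both lay below Het. The log2 change was -0.78 ± 0.16 (SE; edgeR adjusted p = 0.00385) in KO_drug against Het and -0.33 ± 0.16 (edgeR adjusted p = 0.164) in KO_drug against KO. Under total-count scaling it was called lower in both, at -0.62 (adjusted p = 0.0355) and -0.67 (adjusted p = 0.0197). In KO against Het its change was -0.45 ± 0.16 (SE; edgeR adjusted p = 0.0372) with TMM and 0.05 under total-count scaling, and the TMM call was lost without any of Het 1 (log2 change -0.35), Het 2, Het 4, KO 2, KO 4 or KO 5. Its span overlaps Nr2c2, a nuclear receptor gene, which was higher in KO_drug than in KO with TMM (0.52 ± 0.15, SE; edgeR adjusted p = 0.0313).

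**Figure D5:**
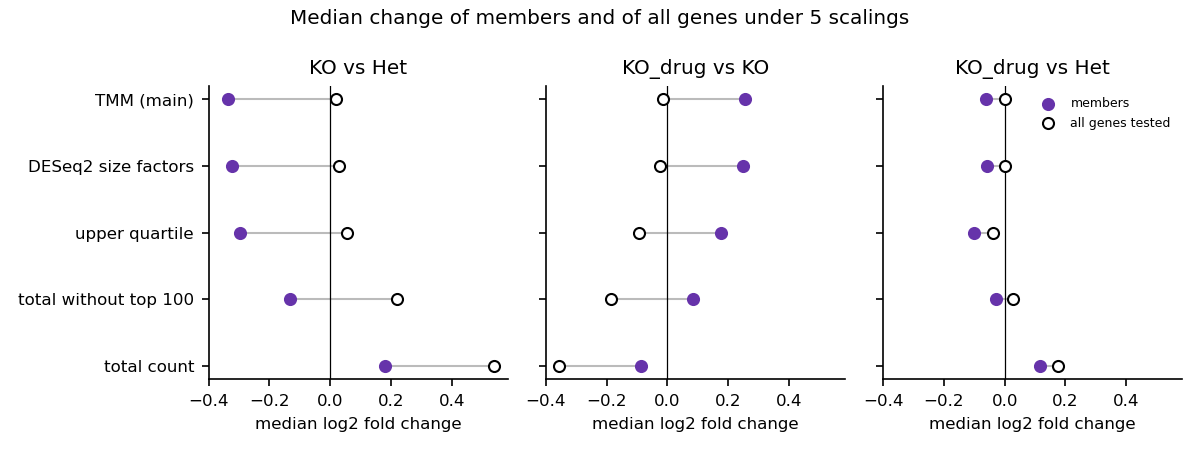
Median log2 fold change (horizontal axis) of the 78 members (purple) and of all 13379 genes tested (open circles) under 5 scalings (rows). In KO vs Het the members lie left of all genes on every row although their own median is -0.34 with TMM and 0.18 under total-count scaling, and in KO_drug vs KO they lie right of all genes on every row.

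Each member was also expressed as a percent of the summed counts of all 78 members in its library, a value that no scaling of libraries changes. This view was added after the data were seen. Shares of single members are tied, since a higher share of 1 gene lowers the others. In KO against Het, 10 members had higher shares without overlap, 9 had lower shares, and 59 overlapped. For all 13379 genes tested, counts relative to the summed member counts were higher without overlap in 36.0% and lower in 5.11%. Mrpl49 took 0.747%, 1.12%, 0.746% and 0.810% of member counts in KO_drug, 1.02%, 0.981%, 0.972% and 0.962% in KO and 1.5%, 1.58%, 1.57% and 1.25% in Het libraries. Its share was lower in both knockout groups than in every Het library (exact two-sided permutation p = 0.0286 each, the smallest possible). Mrpl33 took 1.82%, 1.64%, 2.03% and 2.09% in KO_drug, 1.69%, 2.18%, 1.75% and 1.99% in KO and 1.49%, 1.09%, 0.963% and 1.16% in Het libraries. It was thus above every Het library in both knockout groups, 1.61-fold and 1.62-fold by the means. Mrpl14 took 1.99%, 1.40%, 2.05% and 2.41% in KO_drug, 1.02%, 0.996%, 1.49% and 1.24% in KO and 1.35%, 1.19%, 1.19% and 1.21% in Het libraries. KO_drug was above Het without overlap but overlapped KO through KO 5.

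The shares of the head-to-head pair Mrpl46 and Mrps11 fell in the same class, whereas with TMM neither passed the test in KO against Het (-0.12 ± 0.14 for Mrpl46 and 0.09 ± 0.14 for Mrps11, SE; edgeR adjusted p = 0.51 and 0.629). Mrpl46 took 0.738%, 0.733%, 0.739% and 0.719% of member counts in KO_drug, 0.786%, 0.840%, 0.940% and 0.853% in KO and 0.763%, 0.726%, 0.709% and 0.709% in Het libraries. Both shares were higher in KO than in Het libraries without overlap (1.18-fold and 1.36-fold) and lower in KO_drug than in KO (0.857-fold and 0.821-fold). Mrps11 took 0.579%, 0.585%, 0.463% and 0.529% in KO_drug, 0.659%, 0.609%, 0.664% and 0.693% in KO and 0.497%, 0.460%, 0.495% and 0.473% in Het libraries. For single members the exact two-sided permutation p was at its minimum of 0.0286 in each of these contrasts, and it was not adjusted over the members. In KO_drug against KO, 3 members (Mrpl40, Mrpl42, Mrps35) had higher shares without overlap and 4 (Mrpl10, Mrpl46, Mrps11, Mrps25) lower ones, beside 3.68% and 25.0% of all genes.

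Promoter letters were set beside the TMM calls of KO against Het. ETS letters stood in 10 of 31 members called lower and in 16 of 38 not called. YY1 letters stood in 8 of 31 and 4 of 38, and NRF1 letters in 3 of 31 and 4 of 38. A divergent start occurred in 12 of 31 and 14 of 38. These counts are descriptions without a test.

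Mitoribosomal proteins with other symbols and the factors around them were measured in the same fit. Dap3, a GTP-binding protein of the small subunit, averaged 52.6 ± 7.47 CPM in KO_drug, 47.9 ± 4.95 CPM in KO and 37.2 ± 2.90 CPM in Het libraries (SD, n = 4 each). It was higher in KO than in Het (0.36 ± 0.12, SE; edgeR adjusted p = 0.0328), the opposite sign to most members, and higher in KO_drug than in Het (0.50 ± 0.12, adjusted p = 0.0121). Gadd45gip1, a large-subunit protein near the exit tunnel, was lower in KO than in Het with TMM (-0.36 ± 0.12, SE; edgeR adjusted p = 0.0268) but stood at 0.15 under total-count scaling. Ptcd3, Chchd1 and Aurkaip1 of the small subunit did not pass the test in any comparison.

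Assembly and rRNA modification factors numbered 26, and with TMM 10 were lower and 1 higher in KO, beside 17.7% and 23.0% of all genes. C1qbp, a matrix protein tied to mitochondrial translation, averaged 31.5 ± 6.33 CPM in KO_drug, 17.7 ± 2.19 CPM in KO and 35.1 ± 3.68 CPM in Het libraries. It fell by 0.98 ± 0.15 (SE; edgeR adjusted p = 0.000297) on the log2 scale in KO, and stayed called under total-count scaling at -0.48. The higher gene was Mettl15, a methyltransferase of the small ribosomal RNA (1.54 ± 0.29, SE; edgeR adjusted p = 0.00106). Rbfa, which matures the small ribosomal RNA, changed by -0.57 ± 0.11 (edgeR adjusted p = 0.0015). Under total-count scaling the list held 1 lower and 7 higher calls. Of 16 translation factors and mRNA binders, 6 were lower in KO and 5 higher in KO_drug against KO with TMM, and under total-count scaling 1 was lower and 1 higher in KO and 2 were higher in KO_drug. Rmnd1, needed for mitochondrial translation, and Guf1, an elongation factor homologue, changed by -1.01 ± 0.12 (SE; edgeR adjusted p = 5.1e-05) and -0.72 ± 0.10 (edgeR adjusted p = 0.000149) in KO against Het. In KO_drug against KO they changed by 0.88 ± 0.12 (edgeR adjusted p = 0.000811) and 0.76 ± 0.10 (adjusted p = 0.000673), and in that comparison both stayed called under total-count scaling, at 0.55 and 0.42.

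Of 22 mitochondrial aminoacyl-tRNA synthetases, 7 were lower and 2 higher in KO against Het with TMM, with Nars2 at -0.90 ± 0.16 (SE; edgeR adjusted p = 0.000693) and Fars2 at -0.53 ± 0.12 (adjusted p = 0.00379). Under total-count scaling 0 were lower and 9 higher. Of 18 genes of mitochondrial DNA maintenance, transcription and RNA processing, 9 were lower and 0 higher with TMM, against 2 lower and 2 higher under total-count scaling. Twnk, the mitochondrial replicative helicase, changed by -1.08 ± 0.15 (SE; edgeR adjusted p = 0.000166), and by -0.54 (adjusted p = 0.0049) under total-count scaling. Tfb2m, a mitochondrial transcription factor, changed by -0.67 ± 0.10 (SE; edgeR adjusted p = 0.000255). Import genes were lower in 4 of 22 with TMM (18.2%, near the 17.7% of all genes), Timm9 (-1.11 ± 0.13, SE; edgeR adjusted p = 5.1e-05) and Timm23 (-0.70 ± 0.13, adjusted p = 0.0011) among them, against 1 lower and 5 higher under total-count scaling. Chaperones and proteases were lower in 3 of 12, among them Dnaja3 and Htra2, and higher in 1, Spg7, against 0 lower and 4 higher under total-count scaling. The nuclear genes of the respiratory chain and ATP synthase were lower in 64 of 78 and higher in 1, with a median log2 change of -0.64 and Atp5g1 (-1.46 ± 0.16, SE; edgeR adjusted p = 2.16e-05) and Ndufv3 (-0.93 ± 0.12, adjusted p = 6.91e-05) leading. Under total-count scaling 11 were lower and 2 higher with a median of -0.15. In KO_drug against KO, 47 of these 78 were higher and 1 lower with TMM, and 1 was higher and 1 lower under total-count scaling. Genes listed as cytosolic ribosomal proteins were lower in 46 of 82 and higher in 1 in KO, with a median of -0.47. Rpsa changed by -0.81 ± 0.14 and Rpl7l1, by its symbol an Rpl7-like gene, by -0.58 ± 0.11 (SE). Under total-count scaling 0 genes of this list were lower and 1 higher.

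Among 12 regulators of mitochondrial biogenesis, 4 were lower in KO against Het with TMM and 0 higher, whereas 1 was lower and 3 higher under total-count scaling. Gabpa, the DNA-binding subunit of the factor for the ETS letters, averaged 58.3 ± 7.85 CPM in KO_drug, 45.6 ± 3.24 CPM in KO and 66.3 ± 3.50 CPM in Het libraries (SD, n = 4 each). It fell by 0.54 ± 0.11 (SE; edgeR adjusted p = 0.0021) on the log2 scale in KO against Het, and was higher by 0.35 ± 0.11 (edgeR adjusted p = 0.041) in KO_drug against KO. Under total-count scaling these changes were -0.02 and 0.01 and not called. Yy1 changed by -0.44 ± 0.11 (SE; edgeR adjusted p = 0.00737), Gabpb2, a partner of Gabpa, by -0.46 ± 0.12 (edgeR adjusted p = 0.0083) and Esrrg, an orphan nuclear receptor, by -1.90 ± 0.53 (edgeR adjusted p = 0.0124). Esrrg kept its call under total-count scaling at -1.44, whereas Yy1 and Gabpb2 stood at 0.07 and 0.05. Nrf1, Myc and Ppargc1a, a coactivator of mitochondrial genes, did not pass the test, at -0.15 ± 0.14, -0.05 ± 0.41 and -0.31 ± 0.36 (SE; edgeR adjusted p = 0.42, 0.934 and 0.512). Esrra, Ppargc1b, Pprc1, Hcfc1 and Gabpb1 did not pass it either.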

How the data were processed

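RNA of frozen liver pieces was made into libraries with a stranded total RNA kit, per the labels' protocols. Build mm10, StringTie 2.1.3b and FastQC 0.11.7 are named in the submitters' processing notes. Aligner, annotation and the strand setting of the counting: not given in the sources used here. Deposited by the authors was 1 table with a raw read count and an FPKM per gene and library, per the file headers; 3 unnamed columns were not used. Totals of 16535900 to 28329800 counts limit the precision of low genes, and intervals cover the spread between libraries.

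Genes passing filterByExpr (minimum count 10, minimum total count 15) entered 1 edgeR 4.0.16 quasi-likelihood fit of all 12 libraries (R 4.3.3; group means, TMM). Contrasts were two-sided, with Benjamini-Hochberg adjustment over 13379 genes, called at an adjusted p under 0.05. CPM uses TMM-scaled totals. Exact permutation tests used log2(CPM + 0.5), and for shares the percentages. The fit was tested on simulated data with 200 genes changed 2-fold in KO. In KO against Het it recovered 71.5% of them, and 7.1% of its calls were false. Alternatives were other scalings, DESeq2 1.42.0, no filter, limma 3.58.1 on log2(FPKM + 1) and log2(FPKM + 0.1), subsets of libraries and a replicate block. The SE of a log2 change was derived from that change and the F statistic of its test. The labels do not say whether libraries share litters or days. The p-values set a change against the spread between these libraries, each taken as 1 animal.

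Members named are, per comparison and subunit, the 4 with the smallest p in the direction of most calls and the 2 in the other direction, the extremes of Het FPKM, and Mrps18a, Mrps18b, Mrps18c, Mrpl12, Mrps12, Mrps36 and Mrpl58. From each other list with 3 or more calls in KO against Het, the 2 genes with the smallest p are named, and the regulators and the mitoribosomal proteins under other symbols in full. Further genes were named after their values were seen: Mettl15, Spg7, Mrps31, genes that overlap or neighbour a member, members shown for sequence or shares, and the remaining called members. The members and lists were chosen with earlier results of these data known. Positions and promoters are RefSeq's for GRCm38.p6, matched by gene number; 25 members overlap another gene there.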

Additional observations from a re-analysis of the deposited data

Results flagged for a closer look

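In groups of 4 libraries, a library was singled out where its gap to the nearest other exceeded Dixon's 95% critical share of the group's range. Chance singles out about 1 in 20 groups, and 108 groups were tested. Of the 9 cases below, 4 are Het 1, which also stood apart in the members' share of counts, at 0.285% against 0.185% to 0.199% in the other Het libraries. In Het 1, Mrpl14 had 39.2 CPM against 27.6 to 29.2 CPM, Mrps33 had 26.9 CPM against 17.2 to 18.8 CPM, and Mrps18c had 35.5 CPM against 22.1 to 24.1 CPM. Het 4 had 14.2 CPM of Mrps26, against 17.6 to 18.2 CPM in the other Het libraries. KO_drug 2 had 27.3 CPM of Mrpl49, against 17.3 to 18.1 CPM, and 15.4 CPM of Mrps36, against 12.2 to 12.7 CPM. KO 2 had 45.3 CPM of Mrps7, against 56.3 to 58.1 CPM in the other KO libraries, and KO 4 had 25.8 CPM of Mrps18c, against 18.5 to 19.2 CPM.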

How the results depend on the processing

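Scaling decided the direction of the family. In KO against Het, the median member change was 0.18 under total-count scaling, 0.19 with log2(FPKM + 1) with or without the filter, 0.21 with log2(FPKM + 0.1) and -0.13 with the total without the 100 most abundant genes. Lower calls were 0 under total-count scaling and with each FPKM version and 10 without the most abundant genes, and higher calls were 11 (total count), 12 (each FPKM version) and 1 (without the most abundant genes). The median log2 change of members in KO_drug vs KO was -0.0872 under total-count scaling, -0.0923 with log2(FPKM + 1) with or without the filter, -0.0945 with log2(FPKM + 0.1) and 0.0827 without the most abundant genes. In that comparison higher calls were 1 under total-count and upper-quartile scaling and without the most abundant genes, and 6 with no filter. They were 1 with log2(FPKM + 1) or log2(FPKM + 0.1) and 0 without the FPKM filter. When KO 5 and KO 6, the libraries with Xist, were dropped, higher calls were 18, and 7 of the 11 main calls were among them. The same fit kept 31 of the 36 lower calls of KO against Het. The share of all genes called in that fit is not given here. Lower calls in KO_drug against KO were 1 under total-count scaling and with both filtered FPKM versions and 2 without the FPKM filter. In KO_drug against Het, the median was 0.12 under total-count scaling, 0.11 with log2(FPKM + 1) with or without the filter and 0.12 with log2(FPKM + 0.1). Lower calls were 3 (total count), 11 (upper quartile), 4 (without the most abundant genes), 4 (no filter), 11 (DESeq2) and 2 (each FPKM version). Higher calls were 4 (total count), 0 (upper quartile), 0 (without the most abundant genes), 0 (no filter), 2 (DESeq2), 4 and 5 (FPKM with 1 and 0.1 added) and 2 (fit on the 8 libraries compared). DESeq2's size factors within edgeR kept all 36 lower calls of KO against Het, DESeq2's own test kept the same 36, and upper-quartile scaling kept 30.

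In KO against Het, 75 of 78 members lay below 0 with TMM and 19 under total-count scaling, beside 48.7% and 16.1% of all genes. Named members not called with TMM turned to 0.28 (Mrps12), 0.16 (Mrps18c), 0.07 (Mrps36) and 0.09 (Mrpl14) under total-count scaling, and others to 0.0206 for Mrps7, 0.051 for Mrps25, 0.14 for Mrps18a and 0.31 for Mrps18b. With log2(FPKM + 1), with or without the filter, the values were 0.0501 (Mrps7), 0.0567 (Mrps25), 0.16 (Mrps18a), 0.31 (Mrps18b), 0.0054 (Mrpl30) and 0.22 (Mrpl58), and with log2(FPKM + 0.1) they were 0.0521, 0.0887, 0.17, 0.32, 0.0059 and 0.24. The log2 change of Mrps5 in KO_drug vs KO turned to -0.0211 under total-count scaling, -0.0322 with log2(FPKM + 1) with or without the filter and -0.0336 with log2(FPKM + 0.1). Apart from the scaling itself, the cause was not tested. The log2 change of Mrpl14 in KO_drug vs KO lost its call, among all alternatives run, only in the FPKM version without a filter (0.62, limma adjusted p = 0.0648), and its adjusted p was between 0.000112 (DESeq2) and 0.0648 over these alternatives.

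Leaving out each library in turn gave 23 to 38 lower and 0 to 2 higher members in KO against Het (median -0.39 to -0.27), 1 to 10 higher and 0 lower in KO_drug against KO (median 0.19 to 0.29), and 3 to 8 lower and 0 to 8 higher in KO_drug against Het (median -0.11 to 0.01). The titles carry animal numbers that the labels do not explain. Deviations from the group means correlated at -0.07, 0.10, 0.10 and 0.16 in same-numbered KO_drug and Het libraries, 0.12 and 0.09 in KO_drug and KO, and 0.10 and -0.01 in KO and Het, so that not every pair was over 0.1, and pairs with different numbers reached 0.26. With the number as a replicate block, 19 members were lower in KO against Het, 3 higher in KO_drug against KO, and 5 lower and 1 higher in KO_drug against Het; 16 of the 36 and 1 of the 11 calls made without the block were kept.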

Other observations

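Mrps31, which encodes a small-subunit protein, lies 0.418 Mb from Atp7b on chromosome 8 (chr8:22410449-22429669, mm10). It had 46.4, 48.4, 52.5 and 42.8 CPM in KO_drug, 40.2, 40.4, 46.7 and 48.2 CPM in KO and 36.7, 57.4, 48.1 and 43.8 CPM in Het libraries, and the groups overlapped. Its log2 change in KO against Het was -0.08 ± 0.13 (SE; edgeR adjusted p = 0.645), and under total-count scaling it was 0.45 (adjusted p = 0.00339). Mrps12 starts divergently from Sars2, a mitochondrial seryl-tRNA synthetase. Sars2 averaged 8.33 ± 2.58 CPM in KO_drug, 7.30 ± 0.800 CPM in KO and 8.43 ± 1.46 CPM in Het libraries (SD, n = 4 each), without the high value that KO 5 had for Mrps12.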
